A study of Mus musculus with 22 samples.

Results

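Fatty acid and sterol synthesis was followed through 33 genes in 22 mouse liver tumours driven by MYC. The genes came from a pathway list, 18 for the fatty acid branch and 15 for the sterol branch, and each was looked up by symbol in both expression tables. All 33 were found among the 24063 genes of set 1 and the 24019 genes of set 2. All 33 also passed the filter on low values, which asked for a value of 10 or more in 2 tumours of set 1 or in 3 tumours of set 2.

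Plasmids had been driven into the hepatocytes of C57BL/6 mice through a hydrodynamic tail-vein injection, and none of the mice was treated afterwards. Every tumour, in all groups, carried MYC, with a reporter, either luc (luciferase) or lucOS (luciferase joined to model antigens for T cells), and the genotype names β-catenin or p53 as the second gene. The titles of the p53 tumours of set 2 read sgp53, the usual notation for a CRISPR guide RNA that disrupts p53, while those of set 1 say p53 alone. Set 1 held 2 lucOS β-catenin, 4 luc β-catenin, 3 lucOS p53 and 3 luc p53 tumours. Set 2 held 3 lucOS β-catenin, 3 luc β-catenin and 4 lucOS p53 tumours. In set 2, p53 tumours 1 to 3 were named AL and every other tumour JAX, so the name and the driver nearly coincide. Beyond these names the labels do not give the constructs, and they give neither age nor sex, and no liver without a tumour was analysed here. Because all tumours share MYC and start in injected hepatocytes, the comparisons are between β-catenin and p53 within MYC tumours and not with normal liver.

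Cells make cholesterol from acetyl-CoA through mevalonate, farnesyl diphosphate, squalene and lanosterol, and the genes of this route are switched on together by the transcription factor SREBP-2 when sterols run short. The proteins SCAP and INSIG hold SREBPs in the endoplasmic reticulum when sterols are plentiful. Fatty acids start from the same acetyl-CoA, which carboxylases and fatty acid synthase extend, and elongases and desaturases then shape the chains that go into triglyceride and membranes. In liver this branch answers to insulin through SREBP-1c, to glucose through ChREBP and to oxysterols through LXR.

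Sequencing gave 33.706 to 54.873 M reads over genes per tumour in set 1 and 33.551 to 50.116 M reads in set 2. Values are the deposited normalized signal, a read count scaled by 1 factor per tumour and not by gene length. They are therefore compared between tumours of a set and never between genes. A difference is β-catenin minus p53 on the scale of log2(value + 1), given with its standard error from limma, and genes with an adjusted p below 0.05 over all tested genes are termed called. Trp53 was higher in β-catenin than in p53 tumours in all 3 driver comparisons, by 1.27, 1.30 and 0.95, and the Wnt target Axin2 by 6.82, 4.04 and 6.28, each of them called. Glul, also chosen as a driver check, ran from 58183 to 150110 in luc β-catenin and from 5823 to 7960 in luc p53 tumours. Its lucOS groups overlapped in set 1, at 13203 to 43302 in β-catenin and 7592 to 17818 in p53 tumours. They also overlapped in set 2, at 7394 to 13386 and 5667 to 9859. More genes were called lower than higher with the deposited scaling: 956 higher and 1475 lower in luc tumours of set 1, 261 and 417 in lucOS tumours of set 1, and 950 and 1706 in lucOS tumours of set 2. TMM, a scaling that equalizes the bulk of genes, turned these into 1229 and 679, 326 and 203, and 1296 and 1055. The median over all tested genes was -0.20, -0.15 and -0.16 with the deposited scaling and between -0.01 and 0 with TMM, so each deposited difference stands against that shift.

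β-catenin tumours held more RNA of several sterol and desaturase genes than p53 tumours, while the genes at the head of fatty acid synthesis and the SREBP genes were not called. In luc tumours of set 1, 11 members were called higher and 1 lower: of the sterol genes Mvk, Mvd, Fdps, Nsdhl, Hsd17b7 and Ebp rose, and of the fatty acid genes Scd1, Fads1, Fads2, Me1 and Thrsp rose and Scd2 fell. Over all 16108 genes tested, 15.1% were called, 5.93% higher and 9.16% lower. In lucOS tumours of set 1 only Me1 was called, where 4.21% of all genes were called, 1.62% higher and 2.59% lower. In lucOS tumours of set 2 Scd1, Me1, Thrsp, Fdft1 and Hsd17b7 rose and no member fell, against 17.0% of 15625 genes called, 6.08% higher and 10.9% lower. Fewer tumour cells of a kind and less RNA per cell cannot be told apart in such bulk samples.

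The median difference of the sterol branch was 0.87 in luc tumours of set 1, 0.83 in lucOS tumours of set 1 and 0.53 in lucOS tumours of set 2. The medians of the fatty acid branch were 0.41, 0.46 and 0.31. Both stood above the medians of all tested genes given above, and with TMM they were 1.06, 0.98 and 0.69 for sterol genes and 0.60, 0.60 and 0.46 for fatty acid genes. Me1 was the only member called in all 3 comparisons, against 1.03% of the 15378 genes tested in both sets that were called higher in all 3 and 1.30% called lower. In luc tumours of set 1, 5 fatty acid and 6 sterol genes had all β-catenin values above all p53 values, which 10.9% of genes had, and 2 and 1 had them all below, which 23.2% had. In lucOS tumours of set 1 these counts were 9 and 11 above (13.5% of genes) and 1 and 1 below (24.3%), and in lucOS tumours of set 2 they were 4 and 9 above (10.3%) and 1 and 0 below (22.5%). Scd1, Me1, Thrsp, Mvk, Fdps, Nsdhl, Hsd17b7 and Ebp had every β-catenin tumour above every p53 tumour in all 3, which 3.77% of those genes had. Acly was the single member with every β-catenin tumour below every p53 tumour in all 3, which 7.51% had.

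**Figure D1:**
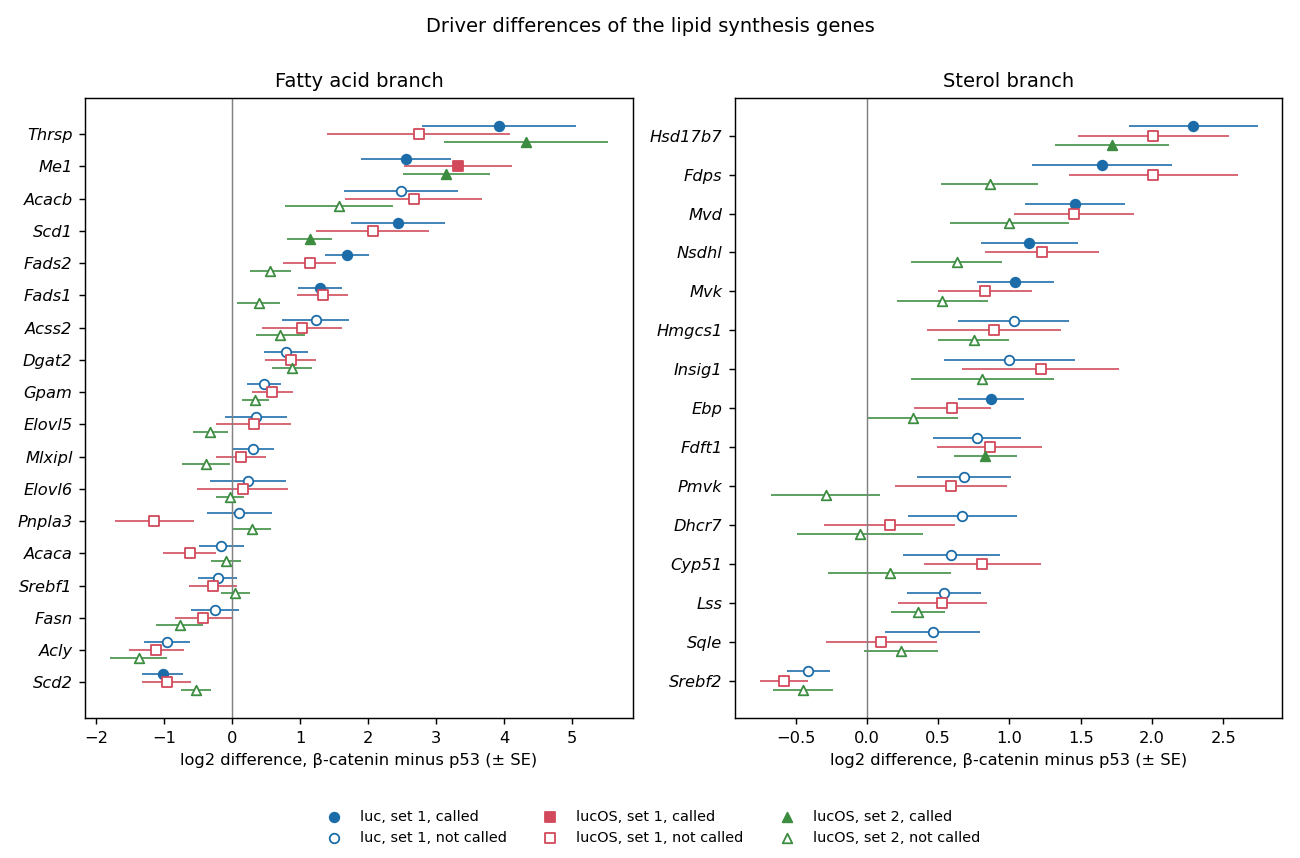
Difference between β-catenin and p53 tumours on the log2 scale, with its standard error, for the 18 fatty acid genes (left) and the 15 sterol genes (right) in 3 comparisons. Filled symbols mark genes called by limma: 12 in luc tumours of set 1, Me1 alone in lucOS tumours of set 1, and 5 in lucOS tumours of set 2; Hsd17b7 heads the sterol branch, level with Fdps in lucOS tumours of set 1, and Thrsp and Me1 head the fatty acid branch.

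Markers of other cell types also differed between the drivers, though not in every comparison. The summed signal of 5 hepatocyte markers ran from 585925 to 631133 in lucOS β-catenin and from 583005 to 735648 in luc β-catenin tumours of set 1, against 342887 to 446592 in lucOS p53 and 179651 to 431163 in luc p53 tumours. In set 2 the same sum ran from 101019 to 642280 in lucOS β-catenin and from 126519 to 232512 in lucOS p53 tumours, which overlapped. Alb makes up most of that sum, and gene by gene 2 of the 5 were called higher in luc tumours of set 1 (median difference 1.25), none in lucOS tumours of set 1 (0.26, with 3 of 5 above 0) and 1 in set 2 (-0.34, with 2 of 5 above 0). The sum of 5 cycling markers lay between 12251 and 24382 in lucOS β-catenin and between 40568 and 52133 in lucOS p53 tumours of set 1. It lay between 12397 and 33575 in luc β-catenin and between 32596 and 41896 in luc p53 tumours, which overlapped, and in set 2 between 13681 and 40929 in lucOS β-catenin and between 49513 and 68517 in lucOS p53 tumours. T and NK cell markers summed to 37.1 to 56.8 in lucOS β-catenin and 233 to 420 in lucOS p53 tumours of set 2, where all 5 were called lower. In set 1 they summed to 28.7 to 36.8 in lucOS β-catenin and 62.6 to 362 in lucOS p53 tumours. The sums of luc tumours there were 26.9 to 64.7 in β-catenin and 84.0 to 194 in p53 tumours. All 5 had differences below 0 in both comparisons of set 1, with none called and medians of -0.98 in luc and -2.19 in lucOS tumours. All 5 bile duct markers had differences below 0 in both comparisons of set 1, with 1 called lower in each. Their medians were -1.88 in luc and -2.68 in lucOS tumours. In set 2 their median was -0.16, with 2 of 5 above 0 and none called. All 5 macrophage markers were above 0 in luc tumours of set 1 (median 1.26, none called), and in set 2 there were 1 called higher and 2 lower. In lucOS tumours of set 1 the macrophage median was 0.05, with 3 of 5 above 0 and none called. Of 5 endothelial markers 2 were called lower in set 2, and of 5 fibroblast and stellate markers 1 was called higher there. All 5 endothelial markers were above 0 in lucOS tumours of set 1 (median 0.76, none called). The part of these shifts in the lipid genes was not tested. Fat cells hold much of the same machinery, and their 5 markers summed to at most 16.9 in every tumour of set 1, with Lep at 0 throughout. In set 2 they reached 516 in lucOS β-catenin and 1898 in luc β-catenin tumours, led by Plin1, against 9.20 at most in lucOS p53 tumours, again with Lep at 0.

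The mevalonate steps come first in the sterol branch. Hmgcs1 encodes the synthase that makes HMG-CoA. In set 1 Hmgcs1 had 28543 and 24760 in the lucOS β-catenin tumours and 7836, 28020, 19890 and 23444 in the luc β-catenin tumours, against 16083, 20129 and 9142 in the lucOS p53 tumours and 9088, 8381 and 8817 in the luc p53 tumours. Luc β-catenin tumour 1 lay below all luc p53 tumours while the other 3 lay above them, and the lucOS groups did not overlap. In set 2 Hmgcs1 had 20806, 16614 and 18713 in the lucOS β-catenin tumours and 13734, 26065 and 27498 in the luc β-catenin tumours, against 10315, 8975, 11355 and 14144 in the lucOS p53 tumours. The lucOS groups of set 2 did not overlap either. The Hmgcs1 difference was 1.03 ± 0.39 (adjusted p = 0.0957) in luc tumours of set 1, 0.89 ± 0.47 (adjusted p = 0.28) in lucOS tumours of set 1 and 0.75 ± 0.25 (adjusted p = 0.0648) in lucOS tumours of set 2. Without luc β-catenin tumour 1 the difference in luc tumours was 1.43 and was called (adjusted p = 0.0108), and with all tumours it was called in edgeR (0.0452) and DESeq2 (0.00636). In set 2 it was called under TMM (0.91, adjusted p = 0.0354), under median centring, with both groups fitted alone, in edgeR and in DESeq2 (adjusted p between 0.00605 and 0.0439). Exons of the transcript Gm48342 on the other strand cover 12.1% of its exon bases, and whether the counting used strand is not given in the sources used here.

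Mvk, the kinase that phosphorylates mevalonate, was called in luc tumours. In set 1 Mvk had 2046 and 2155 in the lucOS β-catenin tumours and 2345, 3060, 1805 and 2138 in the luc β-catenin tumours, against 1523, 1420 and 755 in the lucOS p53 tumours and 1237, 858 and 1303 in the luc p53 tumours. In set 2 Mvk had 1493, 1818 and 1368 in the lucOS β-catenin tumours and 897, 2500 and 2038 in the luc β-catenin tumours, against 1240, 793, 1163 and 1139 in the lucOS p53 tumours. No β-catenin tumour of set 1 lay as low as a p53 tumour with the same reporter, and the lucOS groups of set 2 were also apart, with luc β-catenin tumour 1 of set 2 as low as p53 tumours. The difference was 1.04 ± 0.27 (adjusted p = 0.0292) in luc tumours of set 1, 0.83 ± 0.33 (adjusted p = 0.153) in lucOS tumours of set 1 and 0.53 ± 0.32 (adjusted p = 0.267) in lucOS tumours of set 2. Its call in luc tumours was lost without luc β-catenin tumours 1, 2 or 4 or luc p53 tumours 1 or 2 (adjusted p between 0.052 and 0.105).

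Pmvk, the next kinase, was not called in any comparison. Its values ran from 1199 to 2652 in β-catenin tumours and from 731 to 2285 in p53 tumours of set 1. With the same reporter, its groups were apart only in lucOS tumours of set 1 (2639 and 2652 against 1203 to 2285). Mvd, the decarboxylase that yields isopentenyl diphosphate, rose in luc tumours. In set 1 Mvd had 2526 and 1745 in the lucOS β-catenin tumours and 897, 2671, 1719 and 1936 in the luc β-catenin tumours, against 656, 1164 and 597 in the lucOS p53 tumours and 543, 700 and 595 in the luc p53 tumours. In set 2 Mvd had 1217, 1809 and 1092 in the lucOS β-catenin tumours and 745, 1794 and 2341 in the luc β-catenin tumours, against 525, 1130, 480 and 696 in the lucOS p53 tumours. The groups of set 1 with the same reporter did not overlap, while in set 2 lucOS β-catenin tumour 3 lay just under lucOS p53 tumour 2. The difference was 1.46 ± 0.35 (adjusted p = 0.0217) in luc tumours of set 1, 1.45 ± 0.42 (adjusted p = 0.0733) in lucOS tumours of set 1 and 1.0 ± 0.42 (adjusted p = 0.119) in lucOS tumours of set 2. The call in luc tumours was lost without luc β-catenin tumours 3 or 4 or luc p53 tumours 1, 2 or 3 (adjusted p between 0.0501 and 0.0789), and in lucOS tumours of set 1 Mvd was called without lucOS p53 tumour 2 (1.74, adjusted p = 0.0421). The Mvd transcript with the highest mean in set 1 is one that RefSeq lists as non-coding.

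Fdps makes farnesyl diphosphate, the branch point for sterols and prenyl groups. In set 1 Fdps had 25404 and 13898 in the lucOS β-catenin tumours and 3606, 13054, 18733 and 11823 in the luc β-catenin tumours, against 4788, 7213 and 2910 in the lucOS p53 tumours and 3601, 2940 and 3119 in the luc p53 tumours. The first luc β-catenin tumour was level with luc p53 tumour 1, and every other β-catenin tumour stood well above the p53 tumours. In set 2 Fdps had 6923, 6770 and 12376 in the lucOS β-catenin tumours and 6915, 12849 and 18606 in the luc β-catenin tumours, against 3576, 5642, 4283 and 5222 in the lucOS p53 tumours, and the lucOS groups did not overlap. The difference was 1.65 ± 0.49 (adjusted p = 0.0452) in luc tumours of set 1, 2.01 ± 0.59 (adjusted p = 0.0742) in lucOS tumours of set 1 and 0.86 ± 0.34 (adjusted p = 0.105) in lucOS tumours of set 2. The call in luc tumours was lost without luc β-catenin tumours 2, 3 or 4 or luc p53 tumours 1, 2 or 3 (adjusted p between 0.0895 and 0.118) and with no filter (0.0521) and with both groups fitted alone (0.056). Exons of Gm43738 on the same strand cover 26.7% of the exon bases of Fdps, so its reads may be shared between them.

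Fdft1 encodes squalene synthase, the first enzyme that serves sterols alone. In set 1 Fdft1 had 11842 and 10477 in the lucOS β-catenin tumours and 6797, 14137, 9981 and 12296 in the luc β-catenin tumours, against 6745, 8805 and 3916 in the lucOS p53 tumours and 6352, 4740 and 7561 in the luc p53 tumours. Among luc tumours β-catenin tumour 1 was within the p53 range, and the lucOS groups were apart. In set 2 Fdft1 had 13052, 12886 and 9443 in the lucOS β-catenin tumours and 9494, 16206 and 14005 in the luc β-catenin tumours, against 5561, 6078, 6620 and 8350 in the lucOS p53 tumours, with the lucOS groups apart again. The difference was 0.77 ± 0.31 (adjusted p = 0.108) in luc tumours of set 1, 0.86 ± 0.37 (adjusted p = 0.186) in lucOS tumours of set 1 and 0.83 ± 0.22 (adjusted p = 0.0309) in lucOS tumours of set 2. The call in set 2 was lost without lucOS β-catenin tumours 1 or 2 or lucOS p53 tumours 1, 2 or 3 (adjusted p between 0.0695 and 0.0796) and in the tumours named JAX alone (0.695). Ctsb exons on the other strand cover 18.3% of the exon bases of Fdft1, and without strand their reads cannot be told apart.

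Sqle, the squalene epoxidase and a rate-limiting step of the branch, was not called in any comparison. In set 1 Sqle had 4960 and 6073 in the lucOS β-catenin tumours and 2569, 5856, 3265 and 4636 in the luc β-catenin tumours, against 3485, 7837 and 4925 in the lucOS p53 tumours and 2515, 3748 and 2368 in the luc p53 tumours. In set 2 Sqle had 3267, 4613 and 3068 in the lucOS β-catenin tumours and 2255, 4463 and 4857 in the luc β-catenin tumours, against 2986, 2657, 3206 and 3321 in the lucOS p53 tumours. The β-catenin and p53 groups overlapped in every comparison, and the differences were 0.46 ± 0.33 (adjusted p = 0.349) in luc tumours of set 1, 0.10 ± 0.39 (adjusted p = 0.908) in lucOS tumours of set 1 and 0.24 ± 0.26 (adjusted p = 0.541) in lucOS tumours of set 2. Lss, which closes the sterol ring, and Cyp51, which starts the trimming of lanosterol, were not called either by limma with all tumours. Lss ran from 2257 to 5015 in β-catenin and from 2280 to 3972 in p53 tumours of set 1, and Cyp51 from 1963 to 5882 in β-catenin and from 2040 to 3310 in p53 tumours. With the same reporter, Lss groups were apart only in lucOS tumours of set 2 (3412 to 4168 against 2528 to 3239). Cyp51 groups were apart only in lucOS tumours of set 1 (4360 and 5732 against 2564 to 3239). Dhcr7, the reductase that finishes cholesterol, had differences of 0.67 ± 0.38, 0.16 ± 0.46 and -0.05 ± 0.44, none of them called.

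Among the enzymes that take lanosterol towards cholesterol, Hsd17b7 had the greatest difference of the branch in luc tumours of set 1 and lucOS tumours of set 2. Fdps was level with it in lucOS tumours of set 1, and above it in edgeR (2.13 for Fdps and 1.94 for Hsd17b7) and DESeq2 (2.14 and 1.95). Hsd17b7 is the ketosteroid reductase of the demethylation steps. In set 1 Hsd17b7 had 4255 and 3186 in the lucOS β-catenin tumours and 2165, 6293, 4041 and 3372 in the luc β-catenin tumours, against 472, 1890 and 846 in the lucOS p53 tumours and 694, 618 and 999 in the luc p53 tumours. In set 2 Hsd17b7 had 2936, 4052 and 3245 in the lucOS β-catenin tumours and 1858, 6247 and 2224 in the luc β-catenin tumours, against 752, 1417, 799 and 1307 in the lucOS p53 tumours. β-catenin and p53 tumours with the same reporter were fully apart, β-catenin higher, and lucOS p53 tumour 2 was the highest p53 tumour in both sets. The difference was 2.29 ± 0.45 (adjusted p = 0.00949) in luc tumours of set 1, 2.01 ± 0.53 (adjusted p = 0.0579) in lucOS tumours of set 1 and 1.72 ± 0.40 (adjusted p = 0.0215) in lucOS tumours of set 2. The call in luc tumours held under every alternative tried, with each of the 7 luc tumours left out in turn. That of set 2 was lost without lucOS β-catenin tumours 2 or 3 or lucOS p53 tumours 1 or 3 (adjusted p between 0.0551 and 0.0598) and in the tumours named JAX alone (0.591), and in lucOS tumours of set 1 Hsd17b7 was called without lucOS p53 tumour 2 (2.54, adjusted p = 0.0175).

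Nsdhl is the dehydrogenase that works beside Hsd17b7 on the same methyl groups. In set 1 Nsdhl had 2696 and 3333 in the lucOS β-catenin tumours and 912, 2678, 2252 and 2283 in the luc β-catenin tumours, against 1176, 1720 and 1024 in the lucOS p53 tumours and 889, 775 and 898 in the luc p53 tumours. In set 2 Nsdhl had 1506, 2095 and 1451 in the lucOS β-catenin tumours and 1233, 2718 and 3449 in the luc β-catenin tumours, against 995, 936, 1090 and 1297 in the lucOS p53 tumours. The groups were apart in all 3 comparisons, although luc β-catenin tumour 1 of set 1 was barely above the luc p53 tumours. The difference was 1.14 ± 0.34 (adjusted p = 0.0428) in luc tumours of set 1, 1.23 ± 0.40 (adjusted p = 0.0972) in lucOS tumours of set 1 and 0.63 ± 0.32 (adjusted p = 0.185) in lucOS tumours of set 2. The call in luc tumours was lost without luc β-catenin tumours 2, 3 or 4 or luc p53 tumours 1, 2 or 3 (adjusted p between 0.0816 and 0.118) and with both groups fitted alone (0.0631).

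Ebp, the sterol isomerase that moves the ring double bond, was called in luc tumours. In set 1 Ebp had 2756 and 2409 in the lucOS β-catenin tumours and 2433, 3602, 2181 and 3524 in the luc β-catenin tumours, against 1836, 1816 and 1486 in the lucOS p53 tumours and 1902, 1190 and 1686 in the luc p53 tumours. In set 2 Ebp had 2051, 1915 and 1902 in the lucOS β-catenin tumours and 1313, 3346 and 3965 in the luc β-catenin tumours, against 1657, 1364, 1666 and 1608 in the lucOS p53 tumours. The groups were apart in all 3 comparisons, by a narrow margin in set 2. The difference was 0.87 ± 0.23 (adjusted p = 0.0288) in luc tumours of set 1, 0.60 ± 0.27 (adjusted p = 0.214) in lucOS tumours of set 1 and 0.32 ± 0.32 (adjusted p = 0.511) in lucOS tumours of set 2. The call in luc tumours was lost without luc β-catenin tumours 2 or 4 or luc p53 tumours 2 or 3 (adjusted p between 0.0541 and 0.105).

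Neither of the regulators among the sterol members, Srebf2 and Insig1, was called by limma with all tumours. Srebf2 encodes SREBP-2. In set 1 Srebf2 had 7308 and 5815 in the lucOS β-catenin tumours and 6273, 7108, 6056 and 6346 in the luc β-catenin tumours, against 8998, 9821 and 10562 in the lucOS p53 tumours and 8419, 9686 and 7707 in the luc p53 tumours. In set 2 Srebf2 had 4986, 6343 and 3954 in the lucOS β-catenin tumours and 3903, 5976 and 6219 in the luc β-catenin tumours, against 7181, 5933, 7272 and 7118 in the lucOS p53 tumours. All β-catenin tumours of set 1 lay below the p53 tumours with the same reporter, and the lucOS groups of set 2 overlapped. The difference was -0.41 ± 0.15 (adjusted p = 0.0756) in luc tumours of set 1, -0.58 ± 0.17 (adjusted p = 0.0769) in lucOS tumours of set 1 and -0.45 ± 0.21 (adjusted p = 0.148) in lucOS tumours of set 2. Insig1, itself a SREBP target, encodes the protein that retains SCAP. In set 1 Insig1 had 21590 and 30928 in the lucOS β-catenin tumours and 5801, 19865, 17635 and 13266 in the luc β-catenin tumours, against 10991, 17861 and 6886 in the lucOS p53 tumours and 10570, 4675 and 5286 in the luc p53 tumours. In set 2 Insig1 had 7829, 10646 and 7846 in the lucOS β-catenin tumours and 3356, 17542 and 16491 in the luc β-catenin tumours, against 3880, 5822, 4678 and 5641 in the lucOS p53 tumours. The lucOS groups were apart in both sets and the luc groups overlapped through luc β-catenin tumour 1 and luc p53 tumour 1. The difference was 1.0 ± 0.46 (adjusted p = 0.154) in luc tumours of set 1, 1.22 ± 0.55 (adjusted p = 0.202) in lucOS tumours of set 1 and 0.81 ± 0.50 (adjusted p = 0.272) in lucOS tumours of set 2. Without luc β-catenin tumour 1 the luc difference was 1.38 and was called (adjusted p = 0.0434), as it was in DESeq2 (0.0476), and the difference of set 2 was called with both groups fitted alone (0.0321).

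**Figure D2:**
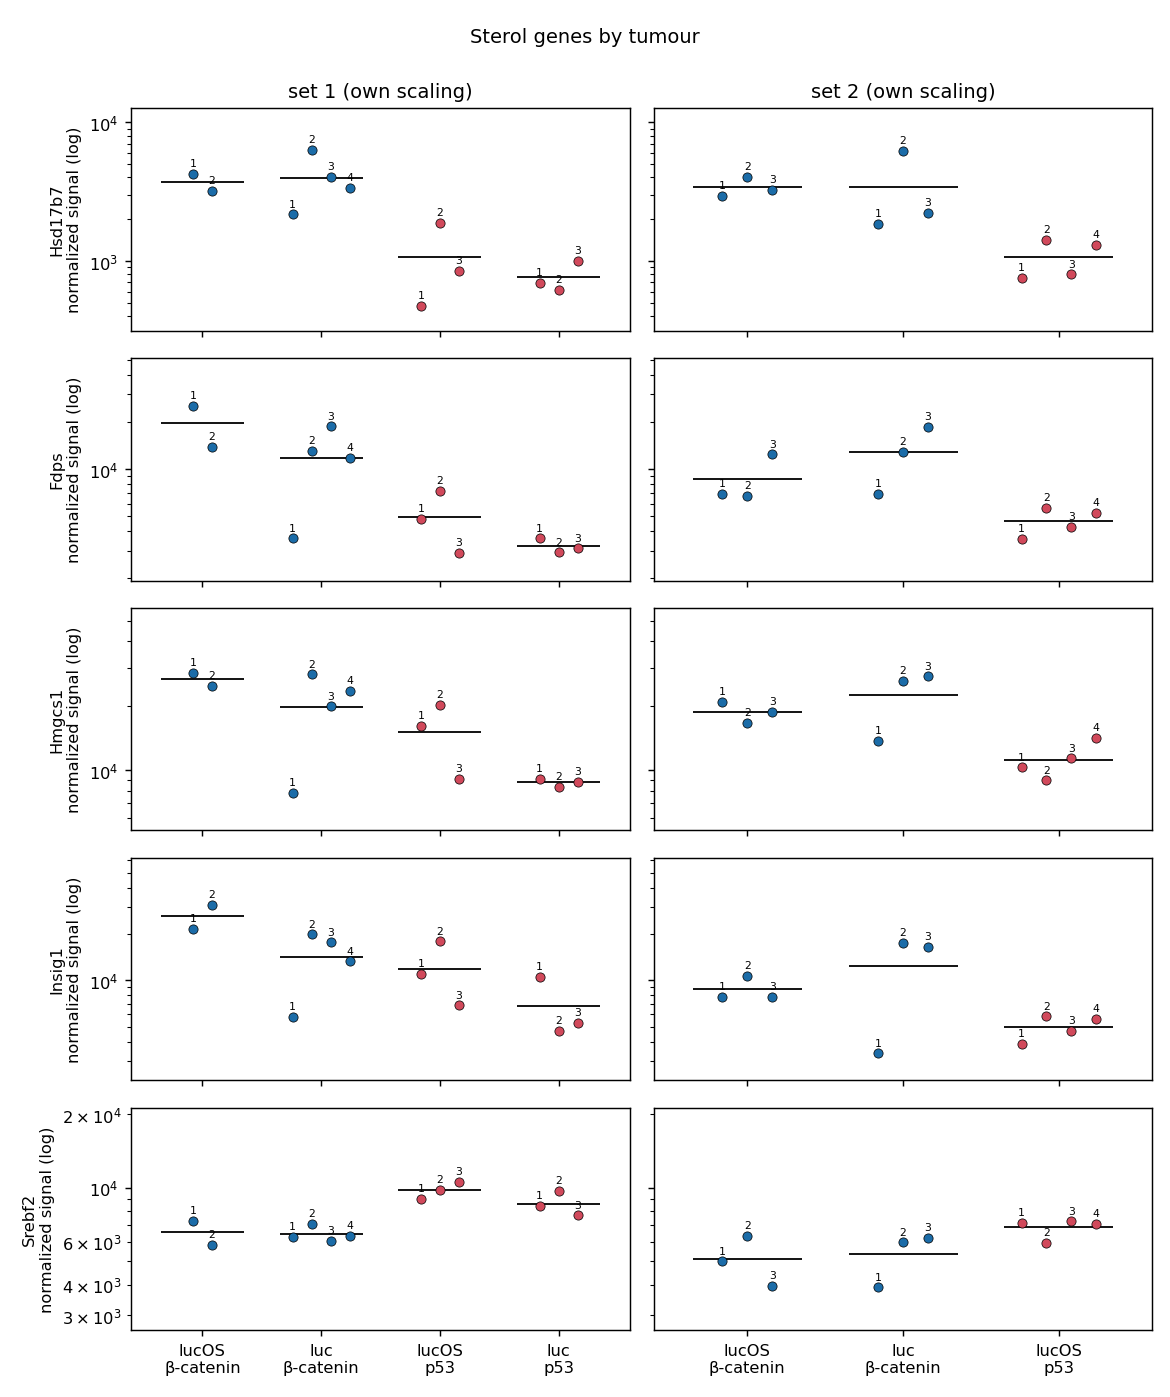
Normalized signal (log axis) of Hsd17b7, Fdps, Hmgcs1, Insig1 and Srebf2 in each tumour of set 1 (left) and set 2 (right), with β-catenin groups in blue and p53 groups in red; numbers name the tumours and lines mark group means. Luc β-catenin tumour 1 is the lowest of its group in both sets for the first 4 genes, at 3606 for Fdps in set 1 and at 3356 for Insig1 in set 2.

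Of the other sterol genes reported here from a list chosen for this comparison, 12 in set 1 and 11 in set 2, 1 was called higher in luc tumours of set 1, none in lucOS tumours of set 1 and 1 in lucOS tumours of set 2, and none lower. Both calls were of the same gene, Insig2. Over all genes 5.93%, 1.62% and 6.08% were called higher in the same comparisons, and 9.16%, 2.59% and 10.9% lower. Insig2, the second retention protein, averaged 2643 ± 546 in luc β-catenin and 942 ± 238 in luc p53 tumours (SD, n = 4 and 3), a difference of 1.50 ± 0.41 (adjusted p = 0.033). In set 2 Insig2 averaged 3513 ± 1897 in lucOS β-catenin and 1023 ± 203 in lucOS p53 tumours (SD, n = 3 and 4), a difference of 1.59 ± 0.39 (adjusted p = 0.0255).

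SREBPs bind sterol regulatory elements next to CCAAT boxes, where the factor NF-Y sits. Promoter windows of 300 bases, 250 before to 50 after the RefSeq start (build GRCm38.p6), were at hand for 26 of the 33 members. A CCAAT box, searched as CCAAT on both strands, was present in all 12 sterol genes matched and in 11 of 14 fatty acid genes (78.6%), against 41.1% of 27025 genes. Of the other sterol genes, which are no members, 6 of 10 matched had a CCAAT box (60%). Among genes with a single window the box was in 10 of 10 sterol, 7 of 10 fatty acid and 5 of 8 other sterol genes, and in 38.2% of all. At least 2 boxes were found in 7 of the 12 sterol genes (58.3%), 3 of the 14 fatty acid genes (21.4%) and 13.3% of all genes. A sterol element searched as TCACNCCAC on both strands was found in Hmgcs1 and Mlxipl, against 1.44% of genes. The E-box CACGTG was in 3 sterol and 2 fatty acid genes (25% and 14.3%, against 8.09%), and the TCF core CTTTGAT in no member, against 4.29%. These are matches of letters and say nothing of binding in these tumours.

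The stretches before the start are shown for 4 sterol genes called in β-catenin tumours, for Hmgcs1, which carries the sterol element, and for Fasn, whose promoter also holds CCAAT boxes and which was not called. Each stretch is a part of the window counted above, at most 160 bases before the start that no exon touches. That of Hsd17b7 ends 37 bases before the start. Capitals mark CCAAT boxes on either strand (CCAAT or ATTGG), the E-box CACGTG in Hsd17b7 and the sterol element in Hmgcs1. The full windows of Hmgcs1 and Nsdhl hold 4 CCAAT boxes each, against 1 and 2 shown. Those of Hsd17b7, Mvk and Ebp hold 3, 5 and 2, against 2, 4 and 1 shown. Hsd17b7 is shown at chr1:169969242-169969401, minus strand, Mvk at chr5:114444109-114444268, plus strand, and Nsdhl at chrX:72918412-72918520, plus strand. Ebp is shown at chrX:8193513-8193672, minus strand, Hmgcs1 at chr13:119690191-119690350, plus strand, and Fasn at chr11:120824548-120824707, minus strand.
Hsd17b7: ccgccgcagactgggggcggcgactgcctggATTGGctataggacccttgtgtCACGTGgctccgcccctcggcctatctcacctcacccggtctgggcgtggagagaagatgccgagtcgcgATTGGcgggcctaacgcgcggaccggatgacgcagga
Mvk: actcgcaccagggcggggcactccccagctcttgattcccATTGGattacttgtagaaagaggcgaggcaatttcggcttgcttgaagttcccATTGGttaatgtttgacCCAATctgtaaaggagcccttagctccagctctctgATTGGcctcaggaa
Nsdhl: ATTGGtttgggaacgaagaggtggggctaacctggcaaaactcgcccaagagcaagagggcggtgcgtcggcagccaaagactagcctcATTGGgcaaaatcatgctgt
Ebp: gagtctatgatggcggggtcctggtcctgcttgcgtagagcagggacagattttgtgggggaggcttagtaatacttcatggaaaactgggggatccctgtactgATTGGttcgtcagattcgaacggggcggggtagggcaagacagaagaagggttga
Hmgcs1: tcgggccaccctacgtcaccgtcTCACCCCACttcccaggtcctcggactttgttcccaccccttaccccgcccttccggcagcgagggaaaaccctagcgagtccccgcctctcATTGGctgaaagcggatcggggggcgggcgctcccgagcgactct
Fasn: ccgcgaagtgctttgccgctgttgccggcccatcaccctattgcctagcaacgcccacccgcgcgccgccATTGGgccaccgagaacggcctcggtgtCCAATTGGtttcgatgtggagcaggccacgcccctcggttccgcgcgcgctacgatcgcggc

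In the fatty acid branch, the suppliers of carbon and reducing power had differences of both signs. Acly, which cleaves citrate to acetyl-CoA, had differences of -0.96 ± 0.34 (adjusted p = 0.0791) in luc tumours of set 1, -1.11 ± 0.41 (adjusted p = 0.133) in lucOS tumours of set 1 and -1.37 ± 0.42 (adjusted p = 0.0523) in lucOS tumours of set 2. Its values ran from 4593 to 15143 in lucOS β-catenin and from 18962 to 22853 in lucOS p53 tumours of set 2, and it was called there without lucOS β-catenin tumour 2 (-1.82, adjusted p = 0.0217) and with both groups fitted alone (-1.37, adjusted p = 0.0409). Acss2, which makes acetyl-CoA from acetate, had differences of 1.23 ± 0.49, 1.03 ± 0.59 and 0.71 ± 0.36 and was not called by limma with all tumours. In set 2 Acss2 was called without lucOS β-catenin tumour 2 (1.12, adjusted p = 0.0468) and in DESeq2 (1.07, adjusted p = 0.0318), and in luc tumours of set 1 in DESeq2 (1.48, adjusted p = 0.0172) and without luc β-catenin tumour 1 (1.57, adjusted p = 0.0498).

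Me1, the cytosolic malic enzyme that supplies NADPH, rose in β-catenin tumours of every comparison. In set 1 Me1 had 18047 and 6803 in the lucOS β-catenin tumours and 1373, 5850, 10716 and 7235 in the luc β-catenin tumours, against 530, 1673 and 1549 in the lucOS p53 tumours and 737, 1203 and 687 in the luc p53 tumours. In set 2 Me1 had 11255, 2268 and 10024 in the lucOS β-catenin tumours and 15561, 8893 and 5496 in the luc β-catenin tumours, against 969, 320, 1337 and 624 in the lucOS p53 tumours. No group overlapped its p53 counterpart; luc β-catenin tumour 1 of set 1 and lucOS β-catenin tumour 2 of set 2 were the lowest β-catenin tumours. The difference was 2.56 ± 0.66 (adjusted p = 0.0274) in luc tumours of set 1, 3.32 ± 0.79 (adjusted p = 0.0439) in lucOS tumours of set 1 and 3.15 ± 0.64 (adjusted p = 0.0138) in lucOS tumours of set 2. In luc tumours the call was lost without luc β-catenin tumours 2, 3 or 4 or luc p53 tumours 1, 2 or 3 (adjusted p between 0.0546 and 0.0906). In lucOS tumours of set 1 it was lost without lucOS β-catenin tumours 1 or 2 or lucOS p53 tumours 1 or 3 (adjusted p between 0.0751 and 0.185) and with no filter (0.0509) and with both groups fitted alone (0.11). In set 2 it was lost without lucOS β-catenin tumour 3 (adjusted p = 0.0505) and in the tumours named JAX alone (0.378), where 1 p53 tumour is left and the difference was 3.35.

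The chain builders themselves were not called. Fasn is fatty acid synthase. In set 1 Fasn had 96367 and 36354 in the lucOS β-catenin tumours and 39815, 51733, 65189 and 47856 in the luc β-catenin tumours, against 116823, 54635 and 78011 in the lucOS p53 tumours and 54175, 56811 and 69779 in the luc p53 tumours. In set 2 Fasn had 39616, 28341 and 20897 in the lucOS β-catenin tumours and 23299, 60839 and 40717 in the luc β-catenin tumours, against 67901, 45463, 36462 and 49812 in the lucOS p53 tumours. β-catenin and p53 tumours overlapped in every comparison, and lucOS p53 tumour 1 was the highest of its set in both. The differences were -0.25 ± 0.35 (adjusted p = 0.649) in luc tumours of set 1, -0.42 ± 0.42 (adjusted p = 0.583) in lucOS tumours of set 1 and -0.77 ± 0.35 (adjusted p = 0.149) in lucOS tumours of set 2. Acaca, the cytosolic carboxylase that feeds Fasn, had differences of -0.16 ± 0.33, -0.62 ± 0.39 and -0.09 ± 0.22, and the first and the last of them were above 0 under TMM, at 0.03 and 0.06. Acacb, the carboxylase at the mitochondrial surface, spread from 621 to 11912 over β-catenin tumours and from 242 to 2025 over p53 tumours of set 1. With the same reporter, its groups were apart only in lucOS tumours of set 1 (2753 and 11912 against 354 to 2025). Its differences of 2.48 ± 0.84, 2.67 ± 1.01 and 1.57 ± 0.79 were not called (adjusted p = 0.0677, 0.139 and 0.185), while DESeq2 called those of set 1 (0.00226 in luc and 0.022 in lucOS tumours). The elongases Elovl5 and Elovl6, which lengthen finished chains, were not called and had differences between -0.32 and 0.35.

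Scd1 and Scd2, sister desaturases that make oleate from stearate, went opposite ways in luc tumours. In set 1 Scd1 had 126060 and 63042 in the lucOS β-catenin tumours and 30594, 46617, 96059 and 47555 in the luc β-catenin tumours, against 45352, 42184 and 4997 in the lucOS p53 tumours and 10365, 6347 and 12236 in the luc p53 tumours. In set 2 Scd1 had 24536, 19727 and 28128 in the lucOS β-catenin tumours and 71269, 56284 and 63916 in the luc β-catenin tumours, against 5525, 11883, 11829 and 17577 in the lucOS p53 tumours. The groups were apart in all 3 comparisons. The difference was 2.44 ± 0.69 (adjusted p = 0.0378) in luc tumours of set 1, 2.07 ± 0.83 (adjusted p = 0.158) in lucOS tumours of set 1 and 1.14 ± 0.33 (adjusted p = 0.0414) in lucOS tumours of set 2. In luc tumours the call was lost without luc β-catenin tumours 2, 3 or 4 or luc p53 tumours 1, 2 or 3 (adjusted p between 0.0625 and 0.12). In set 2 it was lost without lucOS β-catenin tumours 1, 2 or 3 or lucOS p53 tumours 1, 2 or 3 (adjusted p between 0.0508 and 0.122) and in the tumours named JAX alone (0.678) and with both groups fitted alone (0.0672), with a difference of 0.44 in those named JAX.

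Scd2, which is prominent in brain and developing liver, fell in luc β-catenin tumours. In set 1 Scd2 had 42084 and 23900 in the lucOS β-catenin tumours and 27335, 32687, 32601 and 26138 in the luc β-catenin tumours, against 67309, 85842 and 40743 in the lucOS p53 tumours and 82800, 51797 and 50031 in the luc p53 tumours. In set 2 Scd2 had 47646, 29601 and 29162 in the lucOS β-catenin tumours and 47170, 39271 and 34127 in the luc β-catenin tumours, against 61909, 48189, 43824 and 47066 in the lucOS p53 tumours. The luc groups were apart, and in both lucOS comparisons β-catenin tumour 1 reached into the p53 range. The difference was -1.02 ± 0.30 (adjusted p = 0.0426) in luc tumours of set 1, -0.96 ± 0.36 (adjusted p = 0.134) in lucOS tumours of set 1 and -0.53 ± 0.22 (adjusted p = 0.117) in lucOS tumours of set 2. The call was lost without luc β-catenin tumours 1, 2, 3 or 4 or luc p53 tumours 1, 2 or 3 (adjusted p between 0.0591 and 0.156) and under TMM scaling (0.0938), in edgeR (0.0833), under median centring (0.0753) and with no filter (0.0516), and Scd2 was called in set 2 without lucOS β-catenin tumour 1 (-0.76, adjusted p = 0.0392). Scd1 and Scd2 are paralogs that both lie on chromosome 19, and reads that match both could be split between them.

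Fads1 and Fads2, neighbouring desaturases of polyunsaturated fatty acids, both rose in luc β-catenin tumours. In set 1 Fads1 had 18831 and 7586 in the lucOS β-catenin tumours and 8672, 11604, 16870 and 10753 in the luc β-catenin tumours, against 5125, 4338 and 4833 in the lucOS p53 tumours and 5514, 5831 and 3352 in the luc p53 tumours. In set 2 Fads1 had 6605, 3281 and 9460 in the lucOS β-catenin tumours and 7579, 8017 and 8212 in the luc β-catenin tumours, against 5441, 4347, 5014 and 3466 in the lucOS p53 tumours. Its groups were apart in set 1 and overlapped in set 2, where lucOS β-catenin tumour 2 was the lowest of all. The Fads1 difference was 1.29 ± 0.32 (adjusted p = 0.0245) in luc tumours of set 1, 1.33 ± 0.38 (adjusted p = 0.0716) in lucOS tumours of set 1 and 0.39 ± 0.31 (adjusted p = 0.399) in lucOS tumours of set 2. The call was lost without luc β-catenin tumour 3 or luc p53 tumours 1 or 3 (adjusted p between 0.0605 and 0.0784), and in set 2 Fads1 was called without lucOS β-catenin tumour 2 (0.81, adjusted p = 0.0379). In set 1 Fads2 had 16715 and 10436 in the lucOS β-catenin tumours and 11540, 18657, 13084 and 14353 in the luc β-catenin tumours, against 8623, 7348 and 3403 in the lucOS p53 tumours and 5379, 3156 and 5030 in the luc p53 tumours. In set 2 Fads2 had 11488, 6421 and 10801 in the lucOS β-catenin tumours and 7314, 18141 and 12478 in the luc β-catenin tumours, against 7532, 6186, 5679 and 5890 in the lucOS p53 tumours. As for Fads1, the groups were apart in set 1 and lucOS β-catenin tumour 2 reached into the p53 range in set 2. The Fads2 difference was 1.69 ± 0.33 (adjusted p = 0.00955) in luc tumours of set 1, 1.14 ± 0.39 (adjusted p = 0.114) in lucOS tumours of set 1 and 0.56 ± 0.30 (adjusted p = 0.216) in lucOS tumours of set 2. Its call in luc tumours held under every alternative tried, with each of the 7 luc tumours left out in turn.

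Among the regulators, Thrsp, the thyroid hormone responsive Spot protein of lipogenic tissue, had the greatest differences of all members in 2 of the 3 comparisons. In set 1 Thrsp had 9087 and 4804 in the lucOS β-catenin tumours and 5599, 10237, 4034 and 5943 in the luc β-catenin tumours, against 4146, 1889 and 123 in the lucOS p53 tumours and 96.4, 372 and 1803 in the luc p53 tumours. In set 2 Thrsp had 7065, 6826 and 3189 in the lucOS β-catenin tumours and 7373, 12012 and 6532 in the luc β-catenin tumours, against 26.5, 592, 133 and 2342 in the lucOS p53 tumours. β-catenin tumours lay above every p53 tumour with the same reporter, from 4034 to 10237 in set 1 and from 3189 to 12012 in set 2, while p53 tumours of set 2 spread from 26.5 to 2342. The difference was 3.92 ± 1.13 (adjusted p = 0.04) in luc tumours of set 1, 2.74 ± 1.35 (adjusted p = 0.247) in lucOS tumours of set 1 and 4.32 ± 1.20 (adjusted p = 0.0367) in lucOS tumours of set 2. In luc tumours the call was lost without luc β-catenin tumours 1, 2, 3 or 4 or luc p53 tumours 1 or 2 (adjusted p between 0.0643 and 0.153) and in edgeR (0.0798). In set 2 it was lost without lucOS β-catenin tumours 1, 2 or 3 or lucOS p53 tumours 1, 2 or 3 (adjusted p between 0.0519 and 0.0921) and in the tumours named JAX alone (0.578), in edgeR (0.0885) and with both groups fitted alone (0.063). Among the tumours named JAX, tumour 4, the highest p53 tumour, is the only p53 tumour left, and the difference was 1.19.

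Srebf1, which encodes SREBP-1, was not called in any comparison. In set 1 Srebf1 had 11670 and 16396 in the lucOS β-catenin tumours and 9752, 15222, 12222 and 13457 in the luc β-catenin tumours, against 17655, 22383 and 12085 in the lucOS p53 tumours and 22702, 10573 and 12549 in the luc p53 tumours. In set 2 Srebf1 had 10825, 7944 and 10292 in the lucOS β-catenin tumours and 14828, 12080 and 10257 in the luc β-catenin tumours, against 12180, 10611, 7647 and 7461 in the lucOS p53 tumours. The groups overlapped in every comparison, and the differences were -0.21 ± 0.29 (adjusted p = 0.653) in luc tumours of set 1, -0.28 ± 0.35 (adjusted p = 0.672) in lucOS tumours of set 1 and 0.05 ± 0.21 (adjusted p = 0.889) in lucOS tumours of set 2. Mlxipl, which encodes ChREBP, was not called, with differences of 0.31 ± 0.31, 0.13 ± 0.37 and -0.38 ± 0.35. At 21048, luc β-catenin tumour 1 had the highest Mlxipl value of set 1.

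The triglyceride steps stayed below the threshold. Gpam, which adds the first chain to glycerol phosphate, had differences of 0.47 ± 0.25, 0.59 ± 0.30 and 0.34 ± 0.20. Dgat2, which adds the last chain, had differences of 0.79 ± 0.32 (adjusted p = 0.112) in luc tumours of set 1, 0.86 ± 0.38 (adjusted p = 0.204) in lucOS tumours of set 1 and 0.88 ± 0.29 (adjusted p = 0.0642) in lucOS tumours of set 2, and in set 2 it was called under TMM (adjusted p = 0.0446), under median centring (0.0441), in edgeR (0.0455), in DESeq2 (0.00898) and without lucOS β-catenin tumour 2 (1.09, adjusted p = 0.0485). Its groups were apart in both lucOS comparisons. Pnpla3, a protein of lipid droplets, had differences of 0.11 ± 0.48, -1.14 ± 0.58 and 0.29 ± 0.29, none called.

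**Figure D3:**
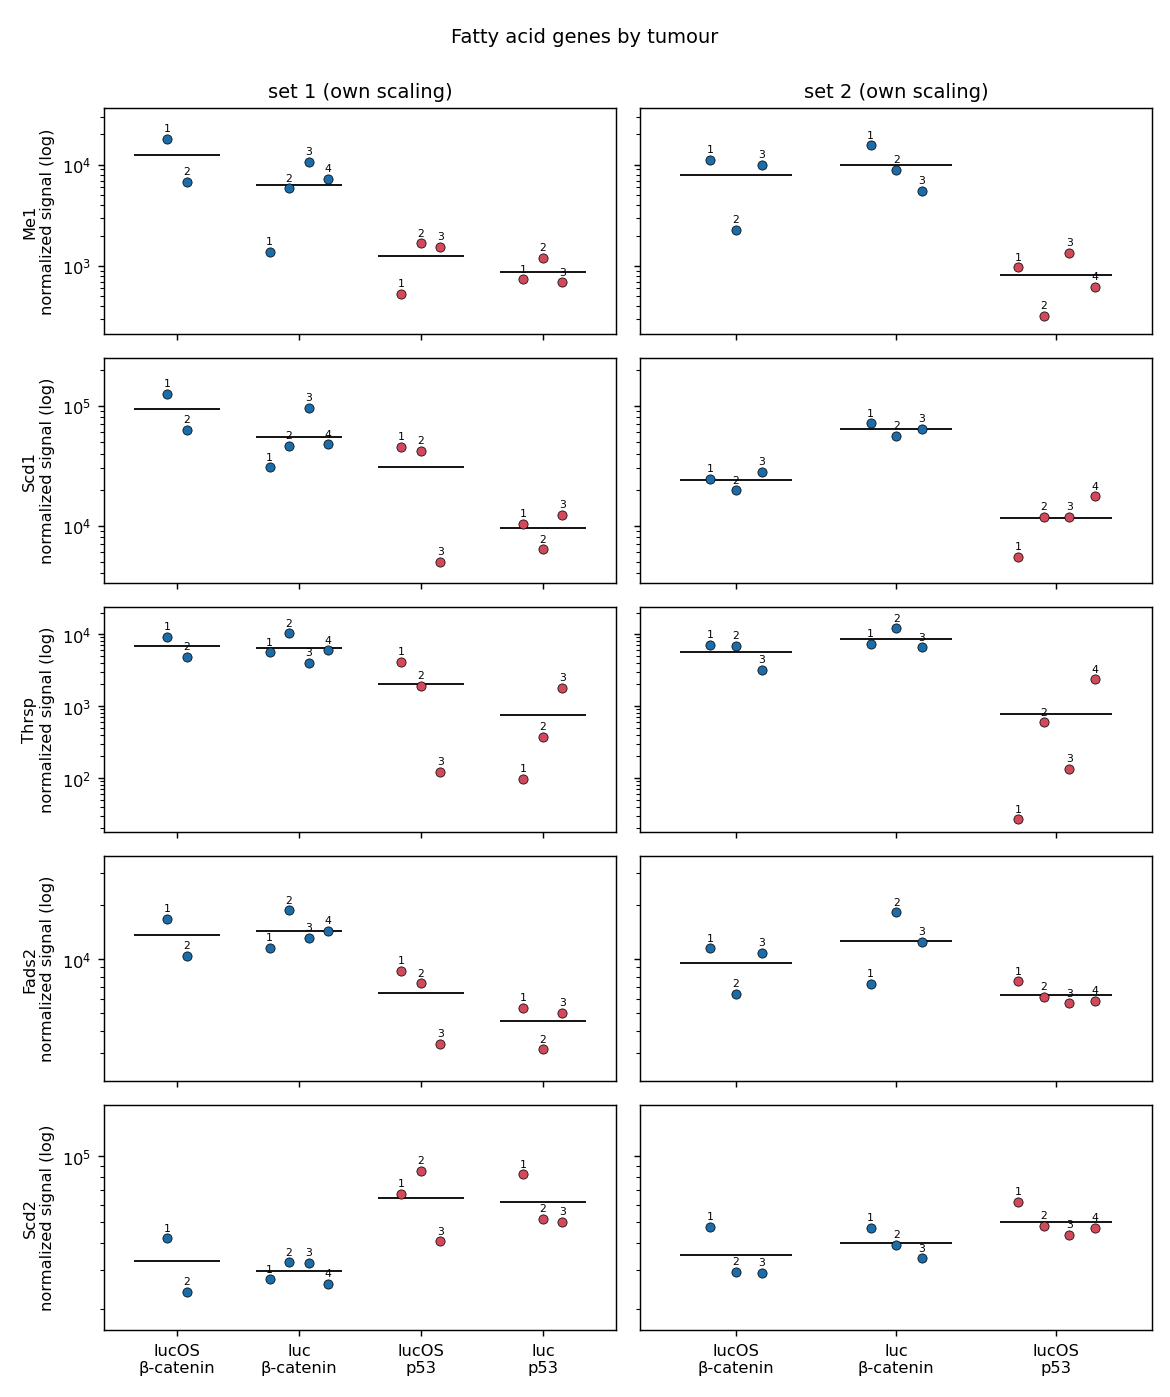
Normalized signal (log axis) of Me1, Scd1, Thrsp, Fads2 and Scd2 in each tumour of set 1 (left) and set 2 (right), with β-catenin groups in blue and p53 groups in red; numbers name the tumours and lines mark group means. For Me1, Scd1 and Thrsp all β-catenin tumours are above every p53 tumour with the same reporter in each comparison, and Thrsp falls to 26.5 in lucOS p53 tumour 1 of set 2.

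Of 24 other fatty acid genes tested in each set, 7 were called higher and none lower in luc tumours of set 1, 1 and none in lucOS tumours of set 1, and 6 and 2 in lucOS tumours of set 2. Over all genes 5.93%, 1.62% and 6.08% were called higher in the same comparisons, and 9.16%, 2.59% and 10.9% lower. Only some of the called genes are named here. Acsl4, which activates polyunsaturated fatty acids, was the one called in all 3, by 2.21 ± 0.37 (adjusted p = 0.00496) in luc tumours of set 1, 2.09 ± 0.44 (adjusted p = 0.032) in lucOS tumours of set 1 and 2.36 ± 0.46 (adjusted p = 0.0116) in lucOS tumours of set 2. It averaged 14309 ± 5238 in luc β-catenin and 3161 ± 1271 in luc p53 tumours (SD, n = 4 and 3). Slc25a1, which exports citrate from mitochondria, rose in luc tumours by 0.88 ± 0.23 (adjusted p = 0.0301). Pgd, a source of NADPH, rose there by 0.84 ± 0.20 (adjusted p = 0.0217) and in lucOS tumours of set 2 by 1.27 ± 0.36 (adjusted p = 0.0398). Nr1h3, which encodes LXRα, rose in luc tumours by 1.13 ± 0.24 (adjusted p = 0.0133). In set 2 Dgat1 rose by 1.01 ± 0.30 (adjusted p = 0.0466) and Acsl3 fell, with a difference of -0.84 ± 0.20 (adjusted p = 0.024).

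The antigen comparison asked whether lucOS tumours differed from luc tumours with the same driver. No member was called by limma, and neither was any of the 16108 or 15625 genes, 0% in each comparison. Among all genes, 722, 222 and 288 had an unadjusted p under 0.05 in p53 tumours of set 1, β-catenin tumours of set 1 and β-catenin tumours of set 2. edgeR called none, and DESeq2 called 9, 18 and 10 genes, no member among them. In p53 tumours of set 1, 30 of 33 members were higher with lucOS, with a median difference of 0.36, where 8040 of 16108 genes were higher. The smallest p was that of Sqle, with 3485, 7837 and 4925 in lucOS p53 and 2515, 3748 and 2368 in luc p53 tumours, a difference of 0.86 ± 0.35 (unadjusted p = 0.0305, adjusted p = 0.952) with the groups overlapping by lucOS tumour 1 and luc tumour 2. Hmgcs1 and Nsdhl had every lucOS tumour above every luc tumour, which 4.63% of genes had, and no member had them all below, which 5.07% had.

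In β-catenin tumours of set 1, 25 of 33 members were higher with lucOS, with a median of 0.21, where 8055 of 16108 genes were higher. Insig1, Nsdhl and Pmvk had both lucOS tumours above all luc tumours, which 3.40% of genes had, and no member had both below, which 2.95% had. In β-catenin tumours of set 2 the signs were the other way, with 3 of 33 members higher and a median of -0.26, where 7498 of 15625 genes were higher. Scd1 had 24536, 19727 and 28128 in lucOS and 71269, 56284 and 63916 in luc tumours of that set. It was the 1 member of 33 with all 3 lucOS tumours below all luc tumours, a share near the 2.36% of all genes. No member had all lucOS tumours above, which 2.18% of genes had. The Scd1 difference was -1.41 ± 0.35 (unadjusted p = 0.00258, adjusted p = 1). In β-catenin tumours of set 1 the Scd1 difference was 0.82 ± 0.78, and the difference between sets was not tested. The driver difference with lucOS minus that with luc in set 1 was called for no gene (436 at an unadjusted p under 0.05, 0 in edgeR and 17 in DESeq2). Its largest member was Pnpla3, at -1.26 ± 0.75 (adjusted p = 1).

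Some tumours stood apart from their own group across a whole branch. Luc β-catenin tumour 1 of set 1 was the lowest of its 4 tumours in 12 of 15 sterol genes, where it was lowest in 30.4% of all genes. Against the median of the other 3 tumours, its sterol genes had a median distance of -0.90 log2 units and its fatty acid genes one of -0.44. Luc β-catenin tumour 1 of set 2 was the lowest of 3 in 15 of 15 sterol genes, with a median distance of -1.31, and in 41.7% of all genes. Its fatty acid genes were not low as a group: it was the highest of its group in 8 of 18 and the lowest in 6. Its Me1 value was 15561, its Acacb value 8448 and its Scd1 value 71269, each the highest of the group, beside an Insig1 value of 3356, the lowest.

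In lucOS p53 tumours of set 1, tumour 3 was lowest in 11 of 15 sterol and 12 of 18 fatty acid genes, with medians of -0.55 and -0.81, and it was lowest in 33.8% of all genes. Tumour 2 of that group was highest in 11 sterol and 8 fatty acid genes, against 34.8% of all genes. In the pair of lucOS β-catenin tumours of set 1, tumour 1 was the higher in 16 of 18 fatty acid genes by a median of 0.96, while sterol genes were split 10 to 5. The 4 lucOS p53 tumours of set 2 had branch medians between -0.22 and 0.27, and the 3 luc p53 tumours of set 1 between -0.34 and 0.28. These are descriptions within groups, and what sets the tumours apart was not tested. Leaving luc β-catenin tumour 1 out of set 1, 9 sterol and 6 fatty acid genes were called higher in luc tumours and none lower, against 6 sterol genes higher, 5 fatty acid genes higher and 1 lower with it. This tumour was singled out for low values in these same genes, so calls gained without it are no separate result. The members that limma called without that tumour and not with it were Hmgcs1, Insig1, Lss (0.77, adjusted p = 0.0353), Cyp51 (0.94, adjusted p = 0.0224), Acss2 (1.57, adjusted p = 0.0498) and Acacb (3.13, adjusted p = 0.0253). With all luc tumours kept, DESeq2 called each of these except Cyp51 (adjusted p between 0.00226 and 0.0476), and edgeR called Hmgcs1 (0.0452). Leaving out any other luc tumour left between 1 and 3 sterol and 1 or 2 fatty acid genes called. The count over all genes was 1964 without luc β-catenin tumour 1 and between 812 and 1709 without any other luc tumour, against 2431 with all of them.

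**Figure D4:**
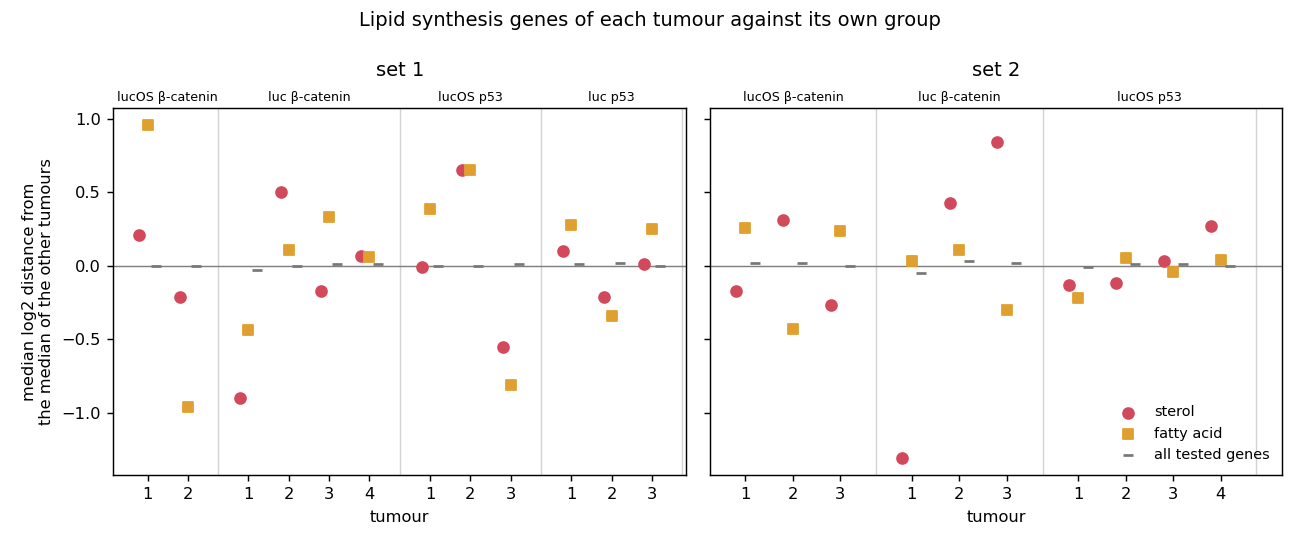
Median log2 distance of the sterol genes (circles), the fatty acid genes (squares) and all tested genes (dashes) of each tumour from the median of the other tumours of its group, in set 1 (left) and set 2 (right). Luc β-catenin tumour 1 of set 2 has its sterol genes at -1.31 and its fatty acid genes at 0.03, while all genes stay within 0.05 of 0 in every tumour.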

How the data were processed

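The authors deposited 2 tables of normalized signal, 1 for each set of tumours. The submitters' processing notes name TopHat2, featureCounts, DESeq2 and mm10 but no version, and per the labels' protocols the library kit was TruSeq RNA on total RNA. In every column 100% of the deposited values were whole reads multiplied by 1 factor (0.7277 to 1.3579) within 0.01 reads. Those reads served for depth, edgeR and DESeq2. Each table has its own scaling, so tests stayed within a set. Set 1 lists 33068 transcripts, and each gene was read from its transcript of highest mean.

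Groups came from the genotype labels. Log2(value + 1) of the genes that passed the filter was fitted with limma 3.58.1 (trend) in R 4.3.3, with the groups of a set fitted together, and p-values were adjusted over all genes tested by Benjamini-Hochberg. The fit was tested on simulated data. The labels do not say that the tumours came from separate mice. The p-values treat the tumours as independent and would be too small if tumours shared a mouse. Alternatives were TMM scaling, median centring, a pseudocount of 10, no filter or one at 50, edgeR 4.0.16, DESeq2 1.42.0, summed transcripts, 2 groups fitted alone, the tumours named JAX alone, and each tumour left out. The members, the gene lists and the naming rule were chosen with earlier results of these data known, and 1 gene of the list of other sterol genes is not reported here. The rule gives the value in every tumour for members called in any comparison and for Fasn, Scd1, Srebf1, Hmgcs1, Sqle, Srebf2 and Insig1, and names other genes only where called between drivers. Gene positions are GENCODE vM21 on GRCm38, the assembly of mm10, and promoter sequences are from RefSeq.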

Additional observations from a re-analysis of the deposited data

Results flagged for a closer look

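Every member was tested in the groups of 4 tumours, luc β-catenin of set 1 and lucOS p53 of set 2. The gap of the lowest or highest tumour to its neighbour was set against the range of the group on the scale of log2(value + 1). Of 66 tests of a member in a group, 3 passed Dixon's critical value of 0.829. Chance flags about 1 in 20, and 3 of 66 is near that share. Pmvk in luc β-catenin tumours of set 1 had tumour 1 far below the others (1199, gap over range 0.961). Nsdhl in the same group also had tumour 1 far below the others (912, gap over range 0.839), but on the linear scale its ratio was 0.759, below the critical value, while the ratio on that scale was 0.949 for Pmvk and 0.885 for Srebf2. Srebf2 in lucOS p53 tumours of set 2 had tumour 2 far below the others (5933, gap over range 0.895).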

How the results depend on the processing

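No paired analysis was possible because the labels give no replicate numbers that groups share. The count of called members depended on the tool. In luc tumours of set 1 DESeq2 called 8 fatty acid genes higher and 1 lower (5 and 1 with limma) and 10 sterol genes higher (6). In lucOS tumours of set 1 it called 4 fatty acid and 4 sterol genes (1 and 0 with limma). In lucOS tumours of set 2 it called 5 fatty acid and 6 sterol genes (3 and 2 with limma). In lucOS tumours of set 1 the fatty acid count was 2 with edgeR and 0 with no filter or with both groups fitted alone. In set 2 the sterol count was 4 with both groups fitted alone, and both counts were 0 in the tumours named JAX alone, where the p53 group is 1 tumour whose spread is assumed to be that of the others. DESeq2 also called more of all genes: 3303 against 2431 with limma in luc tumours of set 1, 2031 against 678 in lucOS tumours of set 1 and 3842 against 2656 in set 2. Over all genes the count in lucOS tumours of set 1 was 418 with edgeR and 18 with both groups alone, and in set 2 it was 23 in the tumours named JAX alone.

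With single tumours left out, the counts ran from 1 to 6 fatty acid and from 1 to 9 sterol genes in luc tumours of set 1, from 0 to 1 and from 0 to 2 in lucOS tumours of set 1, and from 0 to 5 and from 0 to 2 in set 2. Over all genes the counts ran from 812 to 1964, from 76 to 951 and from 1127 to 2209 in the same comparisons. The counts of members stayed at 0 in the antigen comparisons and the interaction. A few values that were not called changed sign. Srebf1 in luc tumours of set 1 was 0.12 without luc p53 tumour 1 (range -0.43 to 0.12), and in set 2 it was -0.04 without lucOS β-catenin tumour 1 or lucOS p53 tumour 3 and -0.05 without lucOS p53 tumour 4 (range -0.05 to 0.19). In lucOS tumours of set 1, Fasn was 0.28 without lucOS β-catenin tumour 2 (range -1.12 to 0.28), and Sqle was -0.05 without that tumour and -0.18 without lucOS p53 tumour 1 (range -0.18 to 0.41). The cause was not tested. Each tumour had at least 33.551 M reads, and each group held 2 to 4 tumours.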

Other observations

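Genes of lipid storage and uptake were read from a list of 12 chosen with earlier results known. In luc tumours of set 1, 7 of the 12 were called higher and none lower, with a median difference of 1.50 and 3 of the 12 below 0, against 5.93% of all genes called higher. Plin2, the coat protein of hepatocyte lipid droplets, averaged 14808 ± 3614 in luc β-catenin and 3171 ± 1508 in luc p53 tumours (SD, n = 4 and 3), a difference of 2.34 ± 0.36 (adjusted p = 0.00322). Cd36, a fatty acid transporter, averaged 6518 ± 3973 in luc β-catenin and 596 ± 471 in luc p53 tumours, a difference of 3.51 ± 0.79 (adjusted p = 0.0162). Pnpla2, the main triglyceride lipase, rose there by 1.23 ± 0.23 (adjusted p = 0.00854). Plin4, Cideb, Cidec and Fabp1 made up the rest of the 7.

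In lucOS tumours 2 of the 12 were called higher in set 1, Plin2 and Cidec, and in set 2 3 were called higher, Cd36, Cidec and Pnpla2, and 1 lower. Over all genes 1.62% were called higher in lucOS tumours of set 1, and 6.08% higher and 10.9% lower in those of set 2. Cidec, which fuses lipid droplets, was the one called in all 3 comparisons, by 2.12 ± 0.56 (adjusted p = 0.0291) in luc tumours of set 1, 2.81 ± 0.66 (adjusted p = 0.0439) in lucOS tumours of set 1 and 2.18 ± 0.62 (adjusted p = 0.0393) in lucOS tumours of set 2. The gene called lower was Fabp5, a fatty acid binding protein of epidermis and macrophages, which averaged 2163 ± 992 in lucOS β-catenin and 5929 ± 591 in lucOS p53 tumours of set 2 (SD, n = 3 and 4), a difference of -1.57 ± 0.46 (adjusted p = 0.0432). The 5 fat cell markers summed to at most 16.9 in set 1. In set 2 they summed to between 9.46 and 516 in lucOS β-catenin and between 3.56 and 9.20 in lucOS p53 tumours, and their part in the calls was not tested.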
